A study of Homo sapiens with 9 samples.

Results

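Long noncoding RNAs (lncRNAs) that have been tied to cancer were followed across 3 pancreatic cancer cell lines. The 10 genes were MALAT1, NEAT1, PVT1, UCA1, HOTAIR, HOTTIP, MIR31HG, LINC00261, CASC9 and SNHG1. They were found by their symbols among the 42717 genes of a table of read counts, and each symbol matched 1 row. A lncRNA is transcribed and often spliced like an mRNA but codes for no known protein. Some lncRNAs, such as NEAT1, build or fill nuclear bodies. Others, such as HOTTIP, act on chromatin near the place where they are made, and others again are kept mainly for the small RNAs cut from their introns. In pancreatic ductal adenocarcinoma (PDAC), several of the 10 have been studied as markers or drivers of growth and invasion.

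The libraries came from the lines S2-007, S2-028 and S2-020, sublines of SUIT-2, a line from human PDAC, with 3 libraries of each line and 9 in all. No line was treated, and all were grown in DMEM with serum. The lines carry maspin, a protein of the serpin family, in different places: in nucleus and cytoplasm in S2-007 (panMaspin), in the cytoplasm in S2-028 (cytMaspin), and only weakly in S2-020. Maspin cannot be told apart here from any other difference between the lines, since each place of maspin is represented by 1 line. Nothing states that the libraries of a line came from separate cultures, so p-values measure only the spread between these libraries, which may be technical.

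Total counts lay between 60328748 and 86253923 per library, and the library most like each of the 9 was of the same line. Values are given as normalized CPM, which are counts scaled to a library of the same size (CPM) after TMM scaling (trimmed mean of M values, which corrects for differences in library composition). All 6 epithelial markers checked (KRT8, KRT18, KRT19, EPCAM, CDH1 and MUC1) were above 1 CPM in every library. Their summed level was between 4273 and 5386 CPM in S2-020, against 9342 to 9833 in S2-007 and 14395 to 16886 in S2-028, and its part in any lncRNA result was not tested. Markers of fibroblasts reached at most 5.75 CPM in sum and those of endothelial cells at most 10.0 CPM. Leukocyte markers summed to between 337 and 411 CPM in S2-007 and to between 11.7 and 14.6 CPM in S2-020 and S2-028. Nearly all of this was LYZ and CD68, whereas the defining leukocyte marker PTPRC was at 0.301 ± 0.0425 CPM (SD, n = 3) in S2-007. In bulk RNA, fewer cells that make a transcript and less of it per cell cannot be told apart.

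The lines were compared in pairs by the edgeR quasi-likelihood test. A gene was called where the p adjusted by Benjamini-Hochberg was under 0.05 and the change was at least 1.5-fold. All 10 lncRNAs passed the filter on low counts in each of the 3 comparisons. In S2-028 against S2-007, 3 of the 10 were called, 1 higher and 2 lower in S2-028, where 18.4% of the 26371 genes tested were called, 10.2% higher and 8.19% lower. In S2-020 against S2-007, 6 were called, 1 higher and 5 lower in S2-020, where 21.6% of 26657 genes were called, 9.57% higher and 12.1% lower. In S2-028 against S2-020, 6 were called, 4 higher and 2 lower in S2-028, where 22.2% of 26031 genes were called, 12.1% higher and 10.1% lower. By the adjusted p alone, without the limit on size, the counts were 5, 6 and 7 of the 10, and 33.9%, 40.2% and 40.4% of all genes tested. Of the 10, UCA1 and HOTTIP were called in all 3 comparisons, MALAT1, NEAT1, MIR31HG and CASC9 in both that involve S2-020, and HOTAIR in that of S2-028 with S2-007. PVT1, LINC00261 and SNHG1 were called in none. Each line enters a pair of the comparisons, so these counts share libraries and are not independent of each other.

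**Figure D1:**
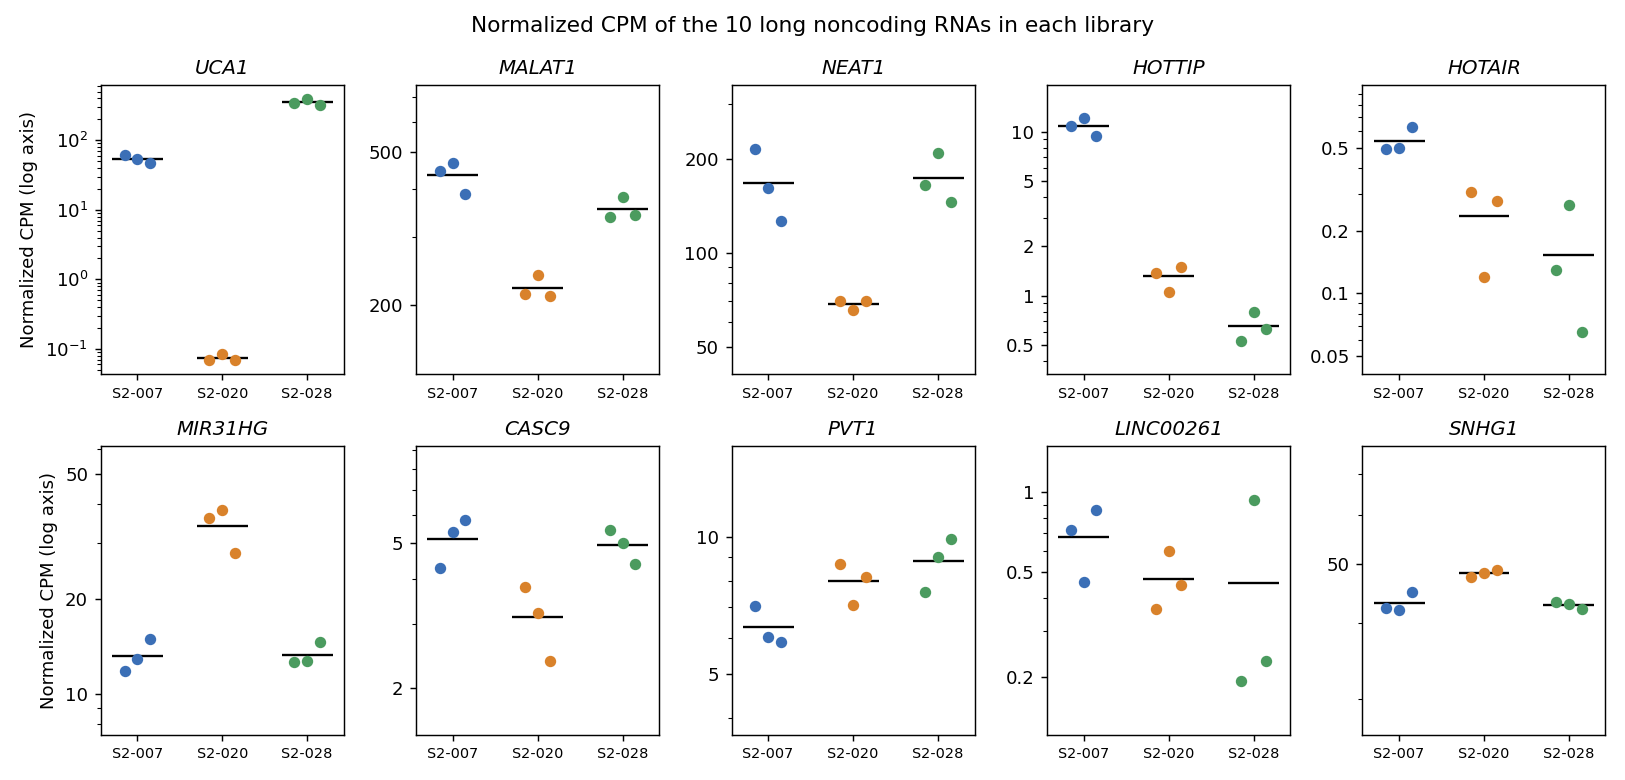
Normalized CPM (log axis, a range of its own in each panel) of the 10 lncRNAs in the 3 libraries of each line; each point is a library and each line the mean of 3. UCA1 spans from 0.0696 to 390 CPM, HOTTIP falls from S2-007 to S2-020 to S2-028, MALAT1, NEAT1 and CASC9 are lowest in S2-020, and MIR31HG is highest there.

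The sequences below are those that place 2 of the 10 genes beside a partner. HOTTIP starts 330 bases from HOXA13, on the opposite strand, and both genes differed between the lines. The window from 250 bases before to 50 bases after the annotated start of HOTTIP lies at chr7:27200171-27200470 (RefSeq, GRCh38.p14, plus strand), and the capitals mark the 171 bases, chr7:27200171-27200341, that are also in the HOXA13 window of the same length. MIR31HG is the host gene of the microRNA miR-31, and the capitals in hsa-miR-31-5p (chr9:21512158-21512178, minus strand) mark its seed, bases 2 to 8, by which a microRNA pairs with its targets.
HOTTIP promoter window: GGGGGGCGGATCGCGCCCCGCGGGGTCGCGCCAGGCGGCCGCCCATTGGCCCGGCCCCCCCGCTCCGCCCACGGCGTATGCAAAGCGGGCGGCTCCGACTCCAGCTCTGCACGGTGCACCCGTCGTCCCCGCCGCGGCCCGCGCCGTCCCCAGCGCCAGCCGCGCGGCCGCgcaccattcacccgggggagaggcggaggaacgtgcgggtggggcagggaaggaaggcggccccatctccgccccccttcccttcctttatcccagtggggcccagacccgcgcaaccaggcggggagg
hsa-miR-31-5p: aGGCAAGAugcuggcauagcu

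Start windows of the same kind were found in the RefSeq table for 5 of the 10 genes (6 windows, since MALAT1 has 2). The windows held 41 CpG pairs for HOTTIP, 39 for MIR31HG, 37 and 14 for MALAT1, 30 for SNHG1 and 8 for LINC00261, beside a median of 14 over all 35116 windows. Motifs were searched as letters on both strands: the TEAD motif GGAATG, the E-box CACGTG and the AP-1 motif TGANTCA. None of these letters was in any of the 6 windows, and they were in 14%, 7.26% and 7.71% of all windows.

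UCA1 showed the widest range of the 10. It lies at chr19:15828947-15836321 and is a lncRNA first described in bladder cancer, where it has been tied to growth and drug resistance. UCA1 was at 61.4, 54.3 and 46.3 normalized CPM in the S2-007 libraries, at 0.0696, 0.0841 and 0.0697 in S2-020 and at 342, 390 and 321 in S2-028. The 3 lines did not overlap, and the S2-020 libraries held 5, 7 and 5 counts, against at least 3413 in any other library. UCA1 rose by 2.70 ± 0.0932 (SE) on the log2 scale from S2-007 to S2-028 (edgeR, Benjamini-Hochberg adjusted p = 1.84e-15). It was lower in S2-020 than in S2-007 by a log2 fold change of -9.50 ± 0.182 (edgeR adjusted p = 7.74e-19). The difference of S2-028 from S2-020 was 12.16 ± 0.132 (edgeR adjusted p = 1.05e-21). Its size rests on the 17 counts of the 3 S2-020 libraries, and the ratio of summed counts scaled to depth was 4689, with a 95% exact interval of 2928 to 8049. PCR copies were not marked, so such intervals take in the error of counting and nothing else.

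The reads of UCA1 could not be told apart from those of a predicted gene. LOC124900418, a protein-coding model, starts at the same base as UCA1 and overlaps it, and how reads in overlapping genes were counted is not given. LOC124900418 had 0.339 to 0.386 counts for each UCA1 count in the 6 libraries of S2-007 and S2-028, and 1.57 to 2.6 in S2-020, where its own counts were 13, 11 and 9. CYP4F11, a neighbour that codes for a fatty acid hydroxylase, went with UCA1 in both comparisons that involve S2-020 and against it in the other. CYP4F11 was at 25.8 ± 3.28 CPM in S2-007, 0.814 ± 0.120 in S2-020 and 5.05 ± 0.177 in S2-028 (SD, n = 3). It was lower in S2-020 than in S2-007 at -5.01 ± 0.140 and higher in S2-028 than in S2-020 at 2.63 ± 0.205 on the log2 scale (edgeR adjusted p = 2.33e-16 and 2.76e-09). In S2-028 against S2-007 it was lower, at -2.35 ± 0.112 (edgeR adjusted p = 4.14e-13). HSH2D, another neighbour, was called in the direction of UCA1 in all 3 comparisons, at 0.92 in S2-028 against S2-007, -2.57 in S2-020 against S2-007 and 3.46 in S2-028 against S2-020. The median log2 fold change of the 20 tested genes on either side was -0.12, -0.26 and -0.08 in S2-028 against S2-007, S2-020 against S2-007 and S2-028 against S2-020, and no neighbour was further out than UCA1 in its direction in any of them.

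Likeness of pattern was measured as the Euclidean distance between centred log2 CPM over the 9 libraries, among 28019 genes. The genes nearest to UCA1 were RAB25 (distance 1.94), MAL2 (2.07) and LOC124900418 (3.20), where the pattern of UCA1 itself had a length of 15.1. RAB25, a small GTPase of epithelial vesicle traffic, had 2, 0 and 2 counts in S2-020 and 15.8 ± 0.638 and 61.0 ± 3.84 CPM in S2-007 and S2-028. MAL2, a protein of apical transport, was at 0.218 ± 0.146 CPM in S2-020, 76.2 ± 5.96 in S2-007 and 298 ± 13.3 in S2-028. Of the 6 epithelial markers, 5 were called lower in S2-020 than in S2-007 and KRT18 was not, at a log2 fold change of -0.29, under 1.5-fold. In S2-028 against S2-007, KRT8, KRT18 and CDH1 were called higher and MUC1 lower, and KRT19 (-0.13) and EPCAM (-0.32) were not called. The part of these markers in the level of UCA1 was not tested.

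MALAT1 and NEAT1 are neighbours on chromosome 11. MALAT1 (chr11:65497738-65506516) is an abundant RNA of nuclear speckles, the stores of splicing factors. NEAT1 (chr11:65422798-65445540) is the scaffold of paraspeckles, nuclear bodies that hold RNA-binding proteins. MALAT1 and the long form of NEAT1 end without a canonical poly(A) tail, and the libraries were made from poly(A) RNA, so these levels are not those of all their RNA.

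MALAT1 was at 448, 469 and 390 normalized CPM in S2-007, at 213, 240 and 211 in S2-020 and at 339, 383 and 344 in S2-028. The 3 lines did not overlap, with S2-020 lowest. MALAT1 was lower in S2-020 than in S2-007 by a log2 fold change of -1.01 ± 0.0686 (edgeR adjusted p = 2.28e-10) and higher in S2-028 than in S2-020 by 0.69 ± 0.0602 (edgeR adjusted p = 1.45e-08). Between S2-028 and S2-007 the log2 fold change was -0.29 ± 0.0707 (edgeR adjusted p = 0.00234), less than 1.5-fold and so not called.

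NEAT1 was at 216, 162 and 127 normalized CPM in S2-007, at 70.2, 65.5 and 70.3 in S2-020 and at 165, 209 and 146 in S2-028. The S2-020 libraries lay below all others, whereas S2-007 and S2-028 overlapped and S2-007 had a coefficient of variation of 26.7%. From S2-007 to S2-020 NEAT1 fell by 1.33 ± 0.123 on the log2 scale (edgeR adjusted p = 2.31e-08), and S2-028 was above S2-020 by 1.34 ± 0.0914 (edgeR adjusted p = 3.90e-10). The difference of S2-028 from S2-007 was 0.04 ± 0.137 (edgeR adjusted p = 0.874).

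Many genes around MALAT1 and NEAT1 were lower in S2-020 as well. Of the 20 tested genes nearest to MALAT1, TALAM1 among them, 13 were called lower in S2-020 than in S2-007 and 0 higher, with a median log2 fold change of -1.07, beside -0.05 over all genes tested. Over the 20 nearest to NEAT1, most of them the same genes, the median was -1.07 and 12 were called lower. Over the wider stretch of 50 genes the medians were -0.52 for MALAT1 and -0.44 for NEAT1. FRMD8, on the other side of NEAT1, fell from 1384 ± 106 CPM in S2-007 to 573 ± 19.4 in S2-020, a log2 fold change of -1.30 ± 0.0551 (edgeR adjusted p = 1.42e-13). In S2-028 against S2-020 the 20 neighbours had medians of 0.48 for MALAT1, with 8 called higher, and 0.59 for NEAT1, with 10 called higher. In S2-028 against S2-007 the medians were -0.46 for MALAT1 and -0.31 for NEAT1, with 4 called lower in each set and 1 and 2 called higher. FRMD8 was called lower there too, at -0.74 ± 0.0613 (edgeR adjusted p = 2.98e-09), where NEAT1 was at 0.04.

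TALAM1, the antisense RNA of MALAT1, tracked it most closely of all genes. Its distance to MALAT1 over the 9 libraries was 0.0717, and it held 0.288 to 0.305 counts for each MALAT1 count in every library. The libraries were strand-specific, but whether strand was used in counting is not given, so reads from MALAT1 and TALAM1 cannot be told apart. The next nearest were LGMN (distance 0.139), a lysosomal protease, and MFSD9 (0.226). Nearest to NEAT1 were ABCA7 (0.426), a lipid transporter, ETAA1 (0.509), an activator of the ATR kinase, and ERBB2 (0.531), a receptor tyrosine kinase. ERBB2 was at 136 ± 8.00 CPM in S2-007, 61.8 ± 2.86 in S2-020 and 156 ± 10.6 in S2-028 (SD, n = 3).

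**Figure D2:**
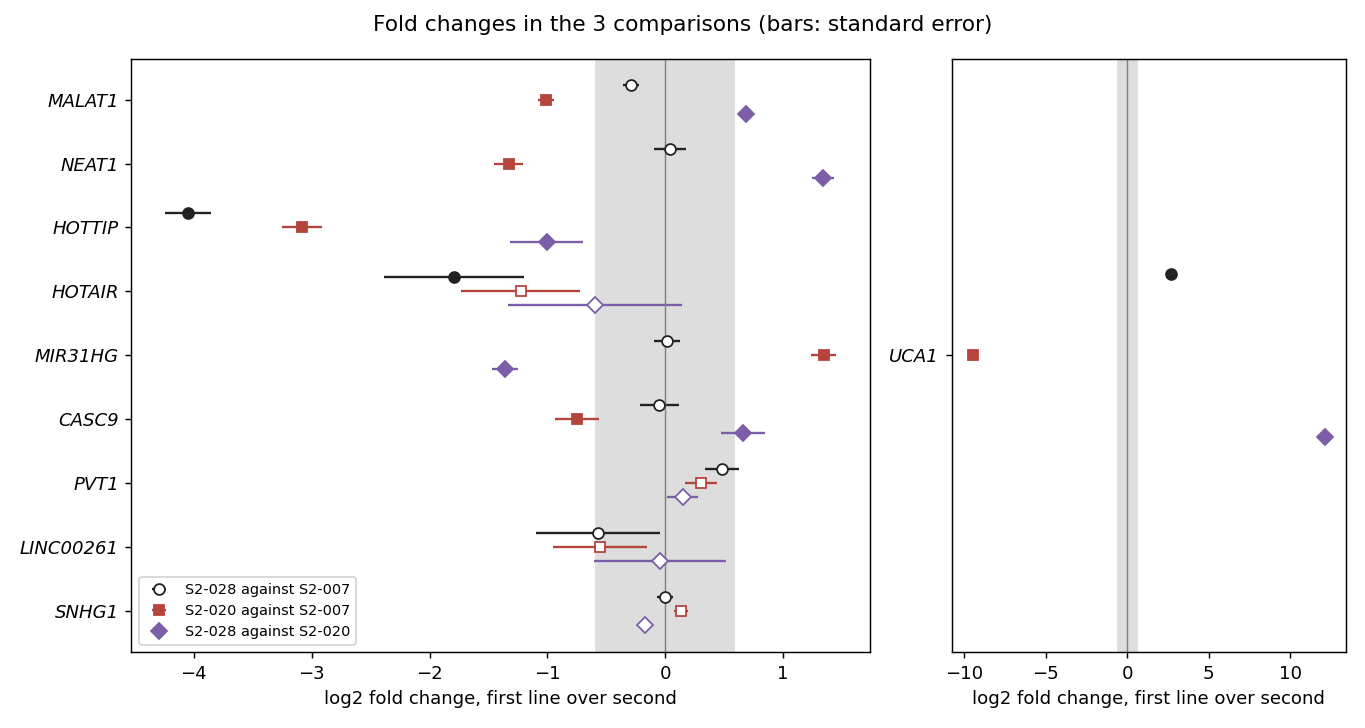
Log2 fold change (first line over second) of each lncRNA in the 3 comparisons, with bars of 1 standard error, UCA1 on an axis of its own; filled symbols were called, and the grey band is a change under 1.5-fold. HOTTIP is below 0 in all 3, MALAT1, NEAT1 and CASC9 are below 0 in S2-020 against S2-007 and above in S2-028 against S2-020, and MIR31HG is the reverse of these.

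Proteins that work with MALAT1 and NEAT1 were taken as lists, beside 18.4%, 21.6% and 22.2% of all genes called in S2-028 against S2-007, S2-020 against S2-007 and S2-028 against S2-020. Of 14 paraspeckle proteins, 0 were called in S2-028 against S2-007 (median log2 fold change 0.05) and 0 in S2-020 against S2-007 (0.17), beside 0.00 and -0.05 over all genes tested. DESeq2 also called 0 in both, while 6 and 12 had an unadjusted p under 0.05 in edgeR and 6 and 11 passed the adjusted p alone, without the 1.5-fold limit. In S2-028 against S2-020, 2 (14.3%) were called, both lower in S2-028. Among them SMARCA4, an ATPase of chromatin remodelling complexes, was at -0.62 ± 0.0494 on the log2 scale (edgeR adjusted p = 3.63e-09). The count was 0 without S2-028 replicate 2. Of 14 genes of nuclear speckles and of the 3′ end processing of both RNAs, 0, 1 and 1 were called in these comparisons, or 0%, 7.14% and 7.14%. The 0 stood beside 6 genes with an unadjusted p under 0.05, and DESeq2 called 0 there too. ELAC2, which cuts the 3′ ends of tRNAs, was lower in S2-020 than in S2-007 at -0.60 ± 0.0597, a call that was lost with RLE scaling, with DESeq2, with all 9 libraries in 1 fit, in a test against 1.5-fold, and without S2-007 replicate 3 or S2-020 replicate 2. RPP14, a subunit of RNase P, was lower in S2-028 than in S2-020 at -0.79 ± 0.108 (edgeR adjusted p = 6.70e-08 and 5.12e-06).

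HOTTIP and HOTAIR come from the HOX clusters, rows of transcription factor genes that set position along the body axis. HOTTIP is made at the 5′ end of HOXA and binds WDR5, a subunit of the MLL complexes that methylate histone H3. HOTAIR is made within HOXC and has been tied to the Polycomb complex PRC2 and to the demethylase complex of LSD1 and CoREST.

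HOTTIP (chr7:27200421-27207259) was at 10.9, 12.1 and 9.50 normalized CPM in S2-007, at 1.38, 1.06 and 1.51 in S2-020 and at 0.532, 0.799 and 0.623 in S2-028. No libraries of different lines overlapped. HOTTIP fell by 4.05 ± 0.195 from S2-007 to S2-028 and by 3.08 ± 0.169 from S2-007 to S2-020 on the log2 scale (edgeR adjusted p = 4.46e-13 and 8.31e-12). The difference of S2-028 from S2-020 was smaller, at -1.01 ± 0.312 (edgeR adjusted p = 0.0134). It was no longer called without S2-020 replicate 3 (-0.90, adjusted p = 0.0614) or without S2-028 replicate 1 (-0.88, adjusted p = 0.0504).

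HOXA13, a homeobox gene of the distal limb and hindgut whose start window shares the bases in capitals with that of HOTTIP, had a like course. HOXA13 was at 65.1, 68.7 and 57.0 CPM in S2-007, at 10.1, 10.2 and 8.99 in S2-020 and at 5.06, 6.15 and 3.59 in S2-028. The lines again did not overlap and stood in the same order. Its log2 fold changes were -3.68 ± 0.134 in S2-028 against S2-007, -2.73 ± 0.0864 in S2-020 against S2-007 and -0.98 ± 0.164 in S2-028 against S2-020 (edgeR adjusted p = 4.03e-15, 1.52e-15 and 5.57e-05). It held 5.67 to 9.66 counts for each HOTTIP count in the 9 libraries. It was the third nearest gene to HOTTIP (distance 0.832), after ALDH3A1 (0.716), an aldehyde dehydrogenase, and SLC4A4 (0.828), a bicarbonate transporter of pancreatic ducts.

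The rest of the HOXA cluster did not share the course of HOTTIP in S2-028. HOXA9 was higher in S2-028 than in S2-007, at 1.39 and 0.561 CPM, a log2 fold change of 1.31 ± 0.324 (edgeR adjusted p = 0.00288). HOXA10 was at 0.27 ± 0.102, under 1.5-fold, in that comparison, and was lower in S2-020 than in S2-007 at -0.99 ± 0.109 (edgeR adjusted p = 0.0428 and 2.90e-07). Around HOTTIP, 5 of the 20 neighbours were called higher and 5 lower in S2-028 against S2-007, with a median of -0.46, and none fell further than HOTTIP. The 5 higher all lay on the HOXA13 side of HOTTIP, and of the 5 lower only HOXA13 did. Over all genes tested, 10.2% were called higher and 8.19% lower. In S2-020 against S2-007, 9 were called lower and 1 higher, with a median of -0.84, beside 12.1% and 9.57% of all genes. With 25 genes on either side the medians were 0.02 and -0.23 in these comparisons.

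HOTAIR (chr12:53962312-53974954) was scarce in all 3 lines. It had 37, 37 and 46 counts in S2-007, 22, 10 and 20 in S2-020 and 8, 17 and 4 in S2-028, or 0.539 ± 0.0745, 0.235 ± 0.100 and 0.154 ± 0.103 CPM (SD, n = 3). The S2-007 libraries lay above all others, and S2-020 and S2-028 overlapped. HOTAIR fell by 1.79 ± 0.594 on the log2 scale from S2-007 to S2-028 (edgeR adjusted p = 0.0231), and the ratio of summed counts was 0.288, with an exact 95% interval of 0.185 to 0.435. Leaving out 1 library ended this call in 5 of 6 cases, with edgeR adjusted p between 0.0522 and 0.0889, the exception being S2-028 replicate 2. S2-020 differed from S2-007 by -1.23 ± 0.505 (edgeR adjusted p = 0.0614), which the likelihood ratio test called (adjusted p = 0.0346). S2-028 differed from S2-020 by -0.60 ± 0.738 (edgeR adjusted p = 0.588), and the ratio of summed counts had an interval of 0.414 to 1.09. That interval holds the error of counting alone, not the spread between libraries. A difference of that size was not resolved with these libraries.

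Several HOXC genes beside HOTAIR were lower in S2-028, while HOXC10 (-1.07), HOXC12 (-0.27) and HOXC13 (-0.72) were not called in S2-028 against S2-007 (edgeR adjusted p = 0.148, 0.832 and 0.139). Against S2-020, HOXC10 (-2.50) and HOXC13 (-1.76) were called lower in S2-028. HOXC11, which overlaps the start of HOTAIR, was at 1.39 ± 0.429 CPM in S2-007, 0.789 ± 0.294 in S2-020 and 0.181 ± 0.0745 in S2-028. It was called in all 3 comparisons, with log2 fold changes of -2.93 ± 0.414, -0.85 ± 0.322 and -2.11 ± 0.493 (edgeR adjusted p = 6.73e-06, 0.0411 and 0.00166), although S2-020 and S2-007 overlapped. How reads in this overlap were counted is not given, so reads of HOTAIR and HOXC11 cannot be told apart there. In the S2-028 libraries HOXC11 had 8, 17 and 9 counts and HOTAIR 8, 17 and 4. HOXC12, on the other side of HOTAIR, had between 2 and 26 counts per library. It was called in neither comparison with S2-007 and did not pass the low-count filter in S2-028 against S2-020, where S2-028 had 0.204 ± 0.116 CPM and S2-020 0.0705 ± 0.0419. Of the 20 genes around HOTAIR, 7 were called lower and 0 higher in S2-028 against S2-007 (median -0.90), and 14 lower and 0 higher in S2-028 against S2-020 (median -1.69). Over all genes tested, 8.19% and 10.1% were called lower in these comparisons, with medians of 0.00 and 0.02. With 25 genes on either side of HOTAIR, the medians were nearer to those of all genes, at -0.37 and -0.38. In S2-020 against S2-007 the median of the 20 was 0.16. The 3 genes nearest to HOTAIR in pattern, LOC105374475, MRPS9-AS1 and LOC124902244, were uncharacterized transcripts of like scarcity, with distances between 0.968 and 1.08.

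Over 10 genes fixed as the 5′ HOXA and HOXC set, 5 of the 9 tested were called in S2-028 against S2-007, 1 higher and 4 lower. It was 5 of 9 in S2-020 against S2-007, 2 higher and 3 lower, and in S2-028 against S2-020 it was 7 of 8, 1 higher and 6 lower. These were 55.6%, 55.6% and 87.5%, beside 18.4%, 21.6% and 22.2% of all genes. Medians were -1.07, -0.17 and -1.94, beside 0.00, -0.05 and 0.02 over all genes tested. HOXC genes of the set did not share 1 course. In S2-020 against S2-007, HOXC10 (1.39) and HOXC13 (1.01) were called higher and HOXC11 (-0.85) lower. HOXC8 and HOXC9, which pattern the thorax, were not called there. HOXC8 was at 6.70 CPM in S2-007, 7.21 in S2-020 and 0.648 in S2-028, with log2 fold changes of -3.36 ± 0.216 from S2-007 to S2-028 and 0.07 ± 0.124 from S2-007 to S2-020 (edgeR adjusted p = 5.04e-11 and 0.696). HOXC9 had log2 fold changes of -3.07 ± 0.269 and -0.17 ± 0.175 in the same comparisons (edgeR adjusted p = 6.72e-09 and 0.499).

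Of 12 subunits of the complexes that HOTTIP and HOTAIR bind, 1, 1 and 2 were called in S2-028 against S2-007, S2-020 against S2-007 and S2-028 against S2-020. These were 8.33%, 8.33% and 16.7%, beside 18.4%, 21.6% and 22.2% of all genes. An unadjusted p under 0.05 in edgeR was found for 7, 9 and 10 of the 12. RCOR1, which codes for CoREST, went from 129 CPM in S2-007 to 61.4 in S2-028 (log2 fold change -1.07 ± 0.0631, edgeR adjusted p = 1.32e-11). DPY30, a subunit of the MLL complexes, was lower in S2-020 than in S2-007 at -0.79 ± 0.0738 and higher in S2-028 than in S2-020 at 0.80 ± 0.0781 (edgeR adjusted p = 2.69e-08 and 6.78e-08). RBBP5, of the same complexes, was lower in S2-028 than in S2-020 at -0.62 ± 0.0848 (edgeR adjusted p = 5.31e-06). The count of 2 in that comparison was 1 without S2-028 replicate 2 and 4 without S2-028 replicate 3.

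**Figure D3:**
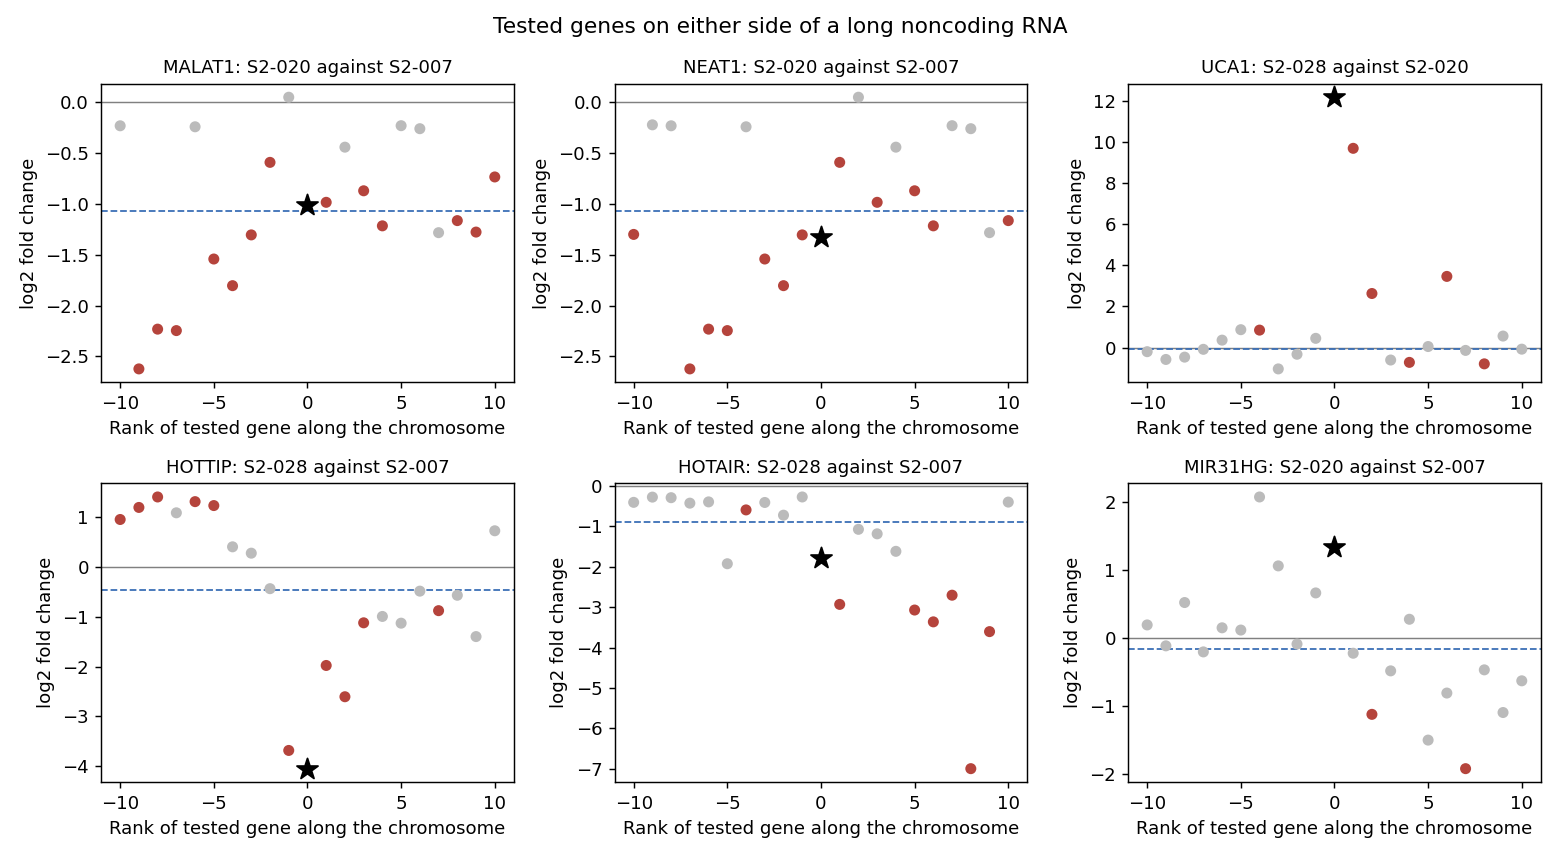
Log2 fold change of the 10 tested genes on either side (x axis, order along the chromosome) of 6 lncRNAs (star), each in the comparison named above its panel; red points were called and the dashed line is the median of the 20. The genes around MALAT1 and NEAT1 have a median of -1.07, whereas no gene beside UCA1 lies above it and 1 beside MIR31HG does.

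MIR31HG and CASC9 separated S2-020 from the other lines in opposite directions. MIR31HG (chr9:21454268-21559798) lies near the CDKN2A tumour suppressor and carries miR-31 in an intron. MIR31HG was at 11.8, 12.9 and 14.9 normalized CPM in S2-007, at 36.2, 38.4 and 27.9 in S2-020 and at 12.6, 12.7 and 14.6 in S2-028. The S2-020 libraries lay above all others, and S2-007 and S2-028 overlapped. MIR31HG was higher in S2-020 than in S2-007 by 1.34 ± 0.108 on the log2 scale, and S2-028 differed from S2-020 by -1.36 ± 0.110 (edgeR adjusted p = 2.98e-09 and 4.30e-09). Between S2-028 and S2-007 the difference was 0.01 ± 0.112 (edgeR adjusted p = 0.950).

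Of the 20 tested genes around MIR31HG, 0 were called higher and 2 lower in S2-020 against S2-007, with a median of -0.16. IFNW1, an interferon gene, was further out than MIR31HG at 2.07 but was not called. In S2-028 against S2-020, 4 neighbours were called higher and 2 lower, with a median of 0.18, and the lower ones, IFNW1 and IFNE, went with MIR31HG. MTAP, an enzyme of methionine salvage, fell from 438 ± 19.5 CPM in S2-007 to 206 ± 5.20 in S2-020, a log2 fold change of -1.12 ± 0.0515 (edgeR adjusted p = 5.32e-13). CDKN2A was at 14.2 ± 1.13 CPM in S2-007, 10.4 ± 1.98 in S2-020 and 10.3 ± 0.0604 in S2-028 and was called in no comparison. IFNE, an interferon gene within MIR31HG, was lower in S2-028 than in S2-020 at -1.40 ± 0.436 (edgeR adjusted p = 0.0139). It had 24, 11 and 52 counts in S2-028 and 88, 129 and 68 in S2-020. Reads of IFNE and MIR31HG cannot be told apart where they overlap, since how such reads were counted is not given. The row of miR-31 held 4 counts in 1 library of S2-007 and 4 in 1 of S2-020, and 0 in the other 7, and libraries of this kind do not capture mature microRNAs. The genes nearest to MIR31HG in pattern were QKI (distance 0.239), an RNA-binding protein, UTRN (0.316), which codes for utrophin, and NUCKS1 (0.412), a nuclear protein that binds DNA.

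CASC9 (chr8:75223117-75278889) was first described in esophageal cancer. CASC9 was at 4.29, 5.37 and 5.80 normalized CPM in S2-007, at 3.79, 3.22 and 2.38 in S2-020 and at 5.43, 5.03 and 4.39 in S2-028. The S2-020 libraries lay below the others, and S2-007 and S2-028 overlapped. It was lower in S2-020 than in S2-007 by a log2 fold change of -0.75 ± 0.186 and higher in S2-028 than in S2-020 by 0.66 ± 0.188 (edgeR adjusted p = 0.0027 and 0.0075). Without S2-020 replicate 3, the latter was 0.50 (edgeR adjusted p = 0.0492), under 1.5-fold. S2-028 differed from S2-007 by -0.05 ± 0.165 (edgeR adjusted p = 0.864).

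Neighbours of CASC9 moved in other ways. HNF4G, a nuclear receptor of gut and pancreas, was at 22.9 ± 1.97 CPM in S2-007, 12.3 ± 2.15 in S2-020 and 4.68 ± 0.304 in S2-028, and was called in all 3 comparisons. S2-028 was thus lowest for HNF4G and not for CASC9. CRISPLD1, a secreted protein, had between 2 and 80 counts per library, with the most in S2-020. Nearest to CASC9 in pattern were METTL24 (distance 0.273), LOC105377785 (0.383) and SDSL (0.421).

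PVT1, LINC00261 and SNHG1 were called in no comparison. PVT1 (chr8:127794524-128101256) lies beside MYC and is often gained with it in cancers. PVT1 was at 7.05, 6.03 and 5.88 normalized CPM in S2-007, at 8.71, 7.08 and 8.14 in S2-020 and at 7.57, 9.00 and 9.89 in S2-028. The S2-007 libraries were the lowest and did not overlap either other line. PVT1 was higher in S2-028 than in S2-007 by 0.48 ± 0.142 on the log2 scale (edgeR adjusted p = 0.0112), which is under 1.5-fold, and the other comparisons gave 0.30 ± 0.134 for S2-020 against S2-007 and 0.15 ± 0.135 for S2-028 against S2-020. MYC was at 125 ± 2.53 CPM in S2-007, 177 ± 3.26 in S2-020 and 143 ± 7.50 in S2-028, with S2-020 highest, and was not called either.

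LINC00261 (chr20:22560553-22578642) is made beside FOXA2, a transcription factor of endoderm, and has been described with it in development. It had 54, 34 and 63 counts in S2-007, 26, 50 and 32 in S2-020 and 12, 60 and 14 in S2-028. All lines overlapped, and S2-028 replicate 2 stood above the other libraries of its line. The log2 fold changes were -0.57 ± 0.523, -0.55 ± 0.395 and -0.05 ± 0.561 in S2-028 against S2-007, S2-020 against S2-007 and S2-028 against S2-020 (edgeR adjusted p = 0.475, 0.309 and 0.965). Without S2-028 replicate 2, LINC00261 was called lower in S2-028 than in S2-007 (-1.67, edgeR adjusted p = 0.0215). FOXA2 differed between all lines, with 2.54 ± 0.278 CPM in S2-007, 1.20 ± 0.118 in S2-020 and 13.5 ± 0.272 in S2-028. It was higher in S2-028 than in S2-007 by 2.41 ± 0.140 and lower in S2-020 than in S2-007 at -1.11 ± 0.221 (edgeR adjusted p = 1.02e-11 and 0.000358). There were 14.3 to 71.3 FOXA2 counts for each LINC00261 count in S2-028, and 2.2 to 5.21 in S2-007 and S2-020, so the gene and its neighbour did not keep 1 ratio.

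SNHG1 (chr11:62851978-62855885) hosts small nucleolar RNAs (snoRNAs), which guide the modification of ribosomal RNA. It was the steadiest of the 10 within lines. SNHG1 was at 42.3, 42.0 and 44.9 normalized CPM in S2-007, at 47.6, 48.2 and 48.8 in S2-020 and at 43.3, 42.9 and 42.2 in S2-028. The S2-020 libraries lay above all others, and the coefficient of variation within a line was 1.25% to 3.80%. S2-028 differed from S2-020 by -0.17 ± 0.0634 on the log2 scale (edgeR adjusted p = 0.0385) and S2-020 from S2-007 by 0.13 ± 0.0600 (0.0941), both under 1.5-fold. S2-028 differed from S2-007 by -0.01 ± 0.0684 (edgeR adjusted p = 0.965). SLC3A2, the amino acid transporter chain at its side, fell from 376 ± 37.9 CPM in S2-007 to 161 ± 28.5 in S2-028 and stood at 665 ± 67.5 in S2-020, and was called in all 3 comparisons. WDR74, a ribosome assembly factor on the other side, was at 39.3 ± 2.93, 39.4 ± 1.06 and 39.9 ± 1.11 CPM and was called in none.

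Of 19 other snoRNA host genes tested, 1, 3 and 1 were called in S2-028 against S2-007, S2-020 against S2-007 and S2-028 against S2-020, with medians of 0.05, 0.27 and -0.12. The shares were 5.26%, 15.8% and 5.26%, each below that of all genes. The first count was 2 without S2-007 replicate 2, S2-028 replicate 1 or S2-028 replicate 2, and the last was 2 without S2-020 replicate 2 and 3 without S2-028 replicate 2. An unadjusted p under 0.05 in edgeR was found for 9, 15 and 12 of the 19 in these comparisons. SNHG5 was higher in S2-028 than in S2-007 at 0.75 ± 0.0741 (edgeR adjusted p = 4.55e-08). In S2-020 against S2-007, SNHG19 (0.82) and SNHG20 (0.61) were higher and SNHG29 was lower (-0.66). SNHG19 was also lower in S2-028 than in S2-020, at -0.67 ± 0.151 (edgeR adjusted p = 0.00119). The snoRNAs of SNHG1 had rows of their own, with 5 to 116 counts per library except SNORD25 at 0 in all 9, and overlap with the host could not be told apart in the counting.

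**Figure D4:**
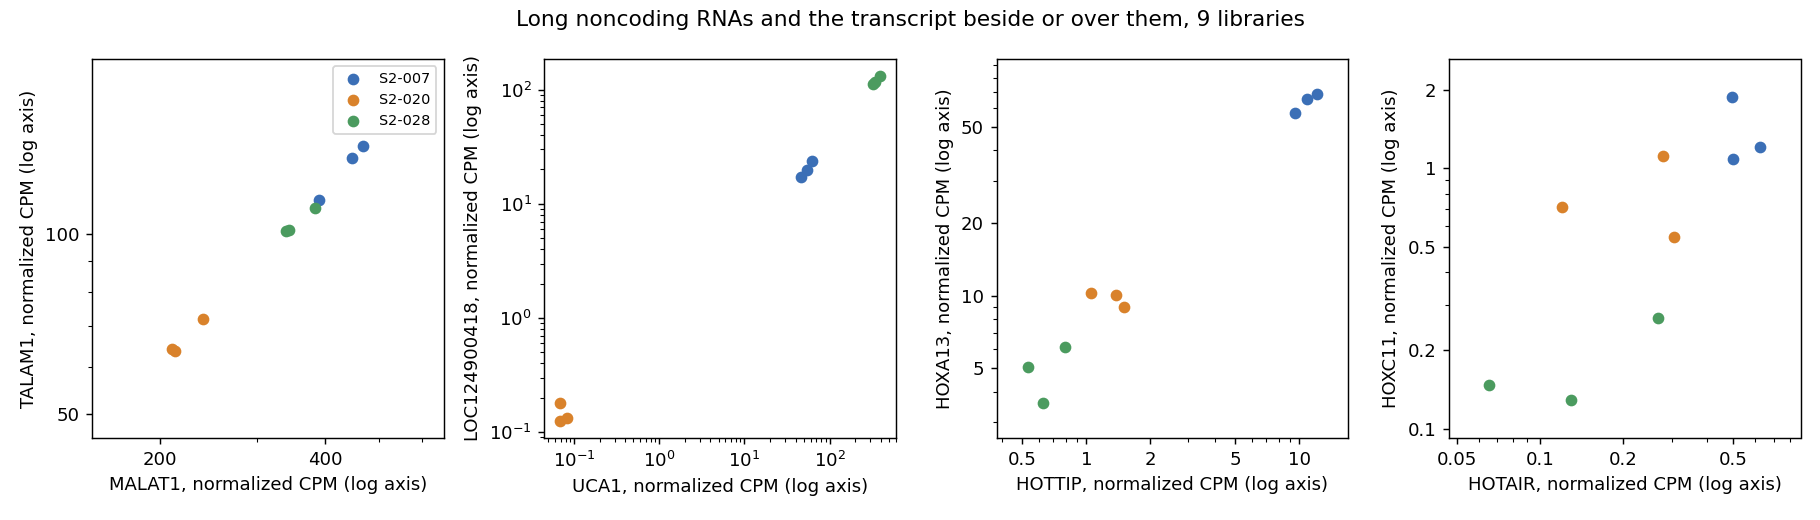
Normalized CPM (log axes) of MALAT1, UCA1, HOTTIP and HOTAIR against the transcript beside or over each in the 9 libraries, coloured by line. TALAM1 keeps to 0.288 to 0.305 counts for each MALAT1 count, LOC124900418 is low and high in the same lines as UCA1, HOXA13 follows HOTTIP in the order of the lines, and HOXC11 spreads more widely around HOTAIR.

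Several small RNAs hosted by these genes were at 0. MASCRNA, the tRNA-like RNA cut from MALAT1, had 0 counts in all 9 libraries, as had MIR612 in NEAT1 and MIR1205 and MIR1206 in PVT1. MIR1208, which is in the list below but does not overlap PVT1 in RefSeq, also had 0. Of the 16 transcripts in a list of miRNAs, snoRNAs and the antisense TALAM1 of the 10 genes, which does not hold every transcript that overlaps them, 9 were tested and TALAM1 was the one called, lower in S2-020 than in S2-007 at -0.98 ± 0.0745 and higher in S2-028 than in S2-020 at 0.64 ± 0.0636 (edgeR adjusted p = 1.21e-09 and 7.64e-08). The shares called were 0%, 11.1% and 11.1% in S2-028 against S2-007, S2-020 against S2-007 and S2-028 against S2-020. Over all genes they were 18.4%, 21.6% and 22.2%. Reads of TALAM1 cannot be told apart from those of MALAT1, so its calls are not separate from those of MALAT1.

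Of 20 other lncRNAs studied in pancreatic cancer, 19 were tested. In S2-028 against S2-007, 4 were called, 1 higher and 3 lower. In S2-020 against S2-007 it was 7, 2 higher and 5 lower, and in S2-028 against S2-020 it was 8, 3 higher and 5 lower. The shares were 21.1%, 36.8% and 42.1%, beside 18.4%, 21.6% and 22.2% of all genes. H19, an imprinted lncRNA of fetal growth, was at 0.664 CPM in S2-007, 5.52 in S2-020 and 3.31 in S2-028, with log2 fold changes of 2.32 ± 0.253, 3.02 ± 0.196 and -0.73 ± 0.175 in S2-028 against S2-007, S2-020 against S2-007 and S2-028 against S2-020 (edgeR adjusted p = 1.92e-07, 1.16e-10 and 0.00196). H19 was lowest in S2-007, the line where MALAT1, HOTAIR, HOTTIP, LINC00261 and CASC9 had their highest means. A link between H19 and any of them was not tested.

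Others of these lncRNAs set S2-020 apart. LUCAT1 was at 6.07 CPM in S2-007, 2.33 in S2-020 and 5.83 in S2-028, and was called in both comparisons with S2-020. CRNDE was at 6.94, 14.6 and 6.41 CPM in the same order, with S2-020 highest. NORAD, which binds PUMILIO proteins, was lower in S2-020 than in S2-007 at -0.70 ± 0.0537 (edgeR adjusted p = 1.58e-09). MIR22HG and MIR210HG were lower in S2-028 than in either other line, at -1.08 and -1.09 against S2-007 and at -0.80 and -0.82 against S2-020.

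**Figure D5:**
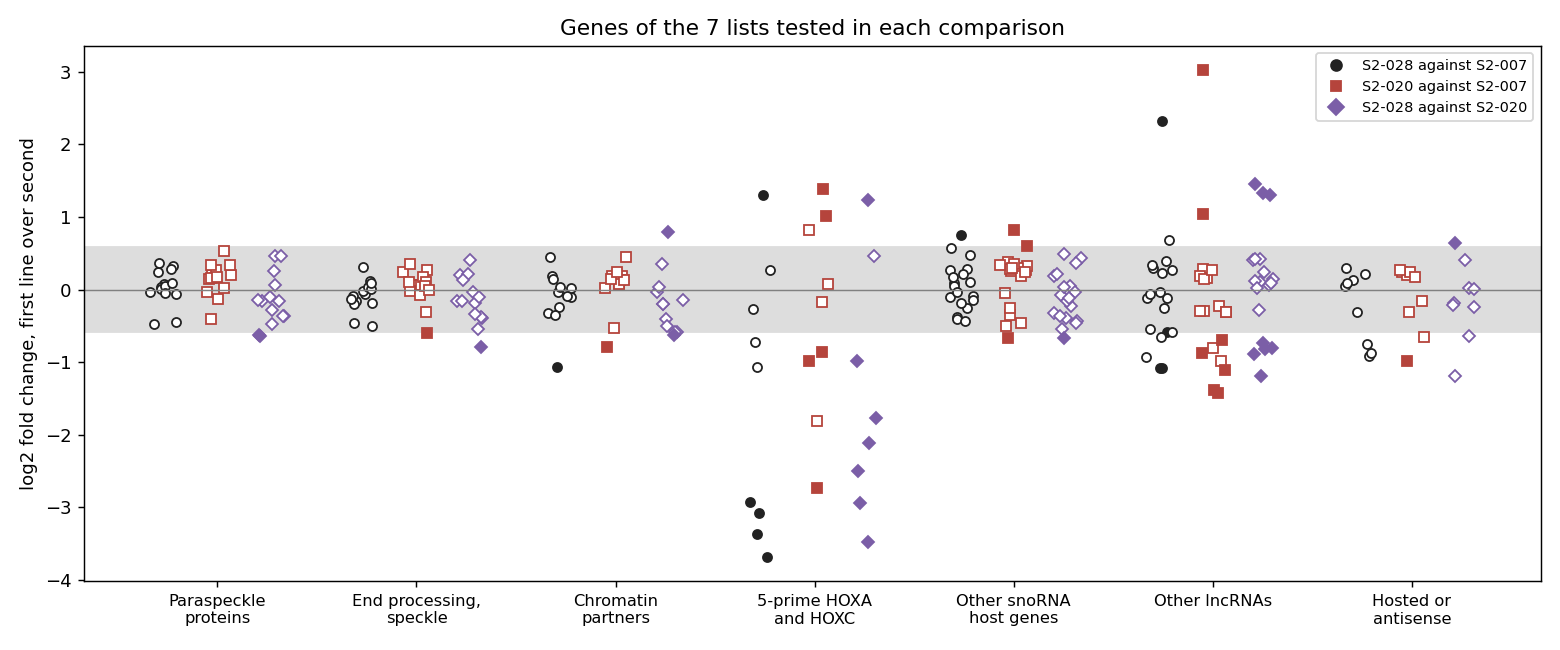
Log2 fold change (y axis, first line over second) of the tested genes of the 7 lists in the 3 comparisons; filled symbols were called and the grey band is a change under 1.5-fold. The 5′ HOXA and HOXC genes spread from -3.68 to 1.39, whereas those of paraspeckles and of end processing stay between -0.79 and 0.54.

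The 10 lncRNAs held 15 calls in 30 tests. Libraries did not overlap for 5, 9 and 7 of the 10 in S2-028 against S2-007, S2-020 against S2-007 and S2-028 against S2-020, where 43.3%, 48.5% and 48.9% of all genes tested did not overlap. MALAT1, UCA1 and HOTTIP were among these in all 3 comparisons. The median log2 fold change of the 10 was -0.03, -0.88 and 0.05 in these comparisons, beside 0.00, -0.05 and 0.02 over all genes tested. HOTAIR and LINC00261, with at most 63 counts in any library, had the largest standard errors.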

How the data were processed

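Poly(A) RNA of 3 libraries each of S2-007, S2-020 and S2-028 was sequenced with a strand-specific protocol. According to the submitters' notes, reads were trimmed with Trimmomatic 0.39 and aligned with BWA 0.7.17 to GRCh38.p14, with SAMtools 1.12 and edgeR 3.16.5 also named. The authors deposited the count of mapped reads per gene, not normalized. They also deposited 18 columns of normalized signal, which were not used here. The counting tool, its treatment of strand and of reads in several genes are not given in the sources used here, and BWA does not join reads across introns. Of the table's lines, 2 name no gene and were left out. Of the 42717 gene IDs, 42497 (99.48%) were matched to the RefSeq table of GRCh38.p14, the source of coordinates. No column of values belonged to a sample outside the series.

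Tests were run with edgeR 4.0.16 in R 4.3.3: filterByExpr (minimum count 10, minimum total 15), TMM scaling, glmQLFit and glmQLFTest on the 6 libraries of each pair of lines, with Benjamini-Hochberg adjustment over all genes tested. The likelihood ratio test, which the authors describe, was an alternative. Printed CPM use TMM factors of all 9 libraries, and log2 CPM for distances a prior count of 2, so a fold change need not be the exact ratio of printed CPM. The procedure was also run on simulated data, but the settings and outcome are not given here, so this is no support for the calls. Alternatives were RLE scaling, DESeq2 1.42.0, no filter on low counts, all 9 libraries in 1 fit, the adjusted p alone, a test against 1.5-fold (glmTreat), the replicate number as a block, 25 neighbours on either side, and leaving out each library.

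The 10 genes, the 7 lists (106 genes) and the rule for naming genes were chosen with earlier results of these data known. The rule named all 10 lncRNAs, the fixed genes beside them, in each list and comparison up to 4 called genes with the smallest adjusted p, and for each called lncRNA the 3 genes nearest in pattern. The genes ELAC2, HOXC8, HOXC9, HOXA9, HOXA10, IFNE, IFNW1, HSH2D and the hosted small RNAs are members of the lists or overlap or neighbour the 10, and some were named after their values were seen. Results that need some further genes are left out of the text.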

Additional observations from a re-analysis of the deposited data

How the results depend on the processing

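The 3 calls of the 10 lncRNAs in S2-028 against S2-007 became 5 with the adjusted p alone, and the 6 in S2-028 against S2-020 became 3 in the test against 1.5-fold. Over all genes, the adjusted p alone gave 8927, 10708 and 10517 calls in S2-028 against S2-007, S2-020 against S2-007 and S2-028 against S2-020, and the test against 1.5-fold gave 2977, 3639 and 3638, where the main counts were 4858, 5769 and 5788. Over the 7 lists, the main counts of 11, 18 and 22 became 38, 53 and 61 with the adjusted p alone, and 10 and 11 in the latter comparisons against 1.5-fold. The median over all neighbours of the 10 went from -0.19 to -0.054 in S2-028 against S2-007 and from -0.20 to -0.10 in S2-020 against S2-007 with 25 genes on either side. These settings differ from the main one in the number of genes or the limit on size, and the cause of the changes was not tested.

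Differences near 0 changed sign when 1 library was left out. In S2-028 against S2-007 these were CASC9 (-0.16 to 0.027), MIR31HG (-0.057 to 0.096), NEAT1 (-0.14 to 0.28) and SNHG1 (-0.020 to 0.013, and 0.0027 with no filter on low counts), and in S2-028 against S2-020 it was LINC00261 (-1.13 to 0.31). None of these was called. The libraries on which calls of HOTAIR, HOTTIP, CASC9 and LINC00261 depended are named beside their values. RLE scaling moved the median of all genes by at most 0.0308.

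Replicate numbers are only names here: the deviations of same-numbered libraries correlated between -0.0219 and 0.0140. With the number as a replicate block, the calls among the 10 stayed 3, 6 and 6, those over all genes were 4866, 5650 and 5716, and those over the lists were 10, 16 and 23. HOTAIR and LINC00261 had 4 to 63 counts per library.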
